A study of Mus musculus with 13 samples.

Results

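Stroma 1 and stroma 2 are the clusters of kidney interstitial nuclei that the deposited annotation of a single nucleus ATAC-seq (snATAC-seq) atlas of the mouse kidney keeps apart, and they were compared here at postnatal day 0 (P0). All nuclei that the annotation names stroma1 or stroma2 in the 2 P0 libraries were taken, 3635 of the 28316 nuclei of the atlas: 690 and 491 of stroma 1 and 1309 and 1145 of stroma 2 in P0 samples 1 and 2. The study profiled open chromatin nucleus by nucleus in newborn and adult mouse kidneys to follow how the cell types of the organ form. The 2 P0 libraries came from whole kidneys of untreated newborn mice (called P0 in the labels, while the protocol speaks of animals 1 day old), from which both kidneys were taken. Of the 3 adult libraries used beside them, 1 came from kidneys at P21 (3 weeks) and 2 from kidneys at P56 (8 weeks), all perfused before the nuclei were taken. The methods name wild type and C57BL/6 mice for the scRNA-seq of the same study, while for the snATAC-seq libraries the sources used here give neither strain and sex nor how many animals entered a library, and nothing says that the P0 libraries were separate litters or animals. The annotation names 13 cell types, and gives the stromal clusters numbers only.

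The kidney stroma is the mesenchyme between nephrons, ducts and vessels. In the developing kidney, Foxd1-positive stromal progenitors surround the nephron progenitors at the surface of the cortex and give rise to interstitial fibroblasts, pericytes, mesangial cells and vascular smooth muscle, while stroma deeper in the medulla and around the ureter receives hedgehog signals from the collecting duct and ureter epithelium. In the hedgehog pathway the ligand binds the receptor Ptch1 and thereby frees Smo, after which the Gli transcription factors switch on targets that include Ptch1, Hhip and Gli1 themselves. Open chromatin at a gene is measured at its promoter and enhancers and is not the amount of its RNA.

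The regions that carry much of what follows are shown by the middle 300 bases of 4 peaks that differed between the clusters, in the reference sequence (mm10, plus strand, 5′ to 3′). The first is, among peaks open in at least 10% of stroma 1 nuclei in both samples, the one with the largest difference, in an exon of the long noncoding RNA gene 4930425O10Rik and 26.4 kb from the start of Tspan5; the second is the peak over the start of Them7, also more open in stroma 1. The others were more open in stroma 2: an intronic peak of Kcnd3 and an intronic peak of P3h2. Capitals mark matches, on either strand, of a motif whose share was higher, by a factor of at least 1.3, among peaks on the same side as the peak shown: CTTTGAT (TCF/LEF) in the first, TCAGGTT (Six2 family) in the second, AGATAA of GATA factors together with TGGGTGGTC (GLI) in the Kcnd3 peak and GLI in the P3h2 peak. Motifs of the other side stay in lower case, such as the E-box CAGCTG of the stroma 2 side that both stroma 1 sequences hold. A capital stretch is a match of letters and not a bound site.
stroma 1, near Tspan5, chr3:138715676-138715975: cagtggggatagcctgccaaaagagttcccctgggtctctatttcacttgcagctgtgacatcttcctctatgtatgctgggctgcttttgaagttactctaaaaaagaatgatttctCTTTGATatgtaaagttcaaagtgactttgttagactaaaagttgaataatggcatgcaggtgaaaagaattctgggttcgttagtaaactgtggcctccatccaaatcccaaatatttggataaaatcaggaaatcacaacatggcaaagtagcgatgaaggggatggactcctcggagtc
stroma 1, start of Them7, chr2:105224153-105224452: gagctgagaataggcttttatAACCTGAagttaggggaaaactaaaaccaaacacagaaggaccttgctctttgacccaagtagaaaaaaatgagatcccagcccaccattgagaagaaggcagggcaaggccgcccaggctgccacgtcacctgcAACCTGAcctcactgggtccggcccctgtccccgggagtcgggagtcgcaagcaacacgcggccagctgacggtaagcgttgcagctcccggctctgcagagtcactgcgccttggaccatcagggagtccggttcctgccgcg
stroma 2, intron of Kcnd3, chr3:105500977-105501276: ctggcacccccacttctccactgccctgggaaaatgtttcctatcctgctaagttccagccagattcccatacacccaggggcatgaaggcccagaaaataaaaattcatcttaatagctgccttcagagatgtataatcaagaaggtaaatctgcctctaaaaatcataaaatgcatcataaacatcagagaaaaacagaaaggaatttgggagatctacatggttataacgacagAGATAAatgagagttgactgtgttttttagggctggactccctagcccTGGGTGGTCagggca
stroma 2, intron of P3h2, chr16:26079108-26079407: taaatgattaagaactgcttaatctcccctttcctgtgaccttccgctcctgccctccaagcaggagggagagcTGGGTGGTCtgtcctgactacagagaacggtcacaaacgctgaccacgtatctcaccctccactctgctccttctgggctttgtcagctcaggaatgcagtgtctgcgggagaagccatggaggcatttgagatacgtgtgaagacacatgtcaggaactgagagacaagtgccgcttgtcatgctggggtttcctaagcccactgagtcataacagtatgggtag

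Stroma 2 was the larger and the deeper cluster in both libraries. Stroma 1 made up 11.5% of the 5993 nuclei of P0 sample 1 (95% exact Clopper-Pearson interval 10.7 to 12.3) and 9.03% of the 5436 nuclei of P0 sample 2 (8.28 to 9.83). The shares of stroma 2 were 21.8% (20.8 to 22.9) and 21.1% (19.99 to 22.2), and these intervals cover counting error only. A stroma 1 nucleus had a median of 5010.5 and 6120 open peaks in the 2 samples, against 6930 and 7624 in stroma 2, that is 72.3% and 80.3% as many. The summed open calls were 3823908 and 3219102 for stroma 1 and 9479984 and 9003908 for stroma 2, so values of stroma 2 rest on more counts. The 2 libraries shared 52 barcodes, 6 of them with the same cluster name in both, and 37 stromal nuclei carried a shared barcode.

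Both clusters ranked above the other cell types on the lists of stromal cell types, though not on every list of mesenchymal genes. The peaks of the nephrogenic and cortical stroma list took 15.6 and 15.3 of every 10000 open calls of stroma 1 and 14.1 and 13.9 of stroma 2, and those of the fibroblast matrix list 12.7 and 12.8 against 16.0 and 15.6. Across the 11 other cell types the medians were 7.53 and 8.03 for the first list and 5.72 and 5.54 for the second, but nephron progenitors, at 13.8 and 13.1, lay close to stroma 2 on the cortical list. Stroma 1 ranked first of the 13 types and stroma 2 second on the cortical list, and stroma 2 ranked first and stroma 1 second on the lists for fibroblast matrix, mural and mesangial cells, smooth muscle contraction, medullary and ureteric stroma, and hedgehog. On hedgehog the levels were close, at 13.94 and 14.02 in stroma 2, 13.87 and 13.65 in stroma 1 and 13.59 and 13.14 in nephron progenitors. On the remaining lists of gene families and pathways stroma 1 and stroma 2 ranked 1 and 2 on Wnt, 1 and 3 on mesenchymal transcription factors, 2 and 3 on retinoic acid, where endothelial cells came first, 2 and 5 on posterior Hox, 6 and 2 on Bmp and Tgfb, 9 and 10 on Notch and 11 and 12 on Pdgf and Fgf. The nephron progenitor list took 2.18 and 2.25 per 10000 calls in stroma 1 and 1.963 and 1.92 in stroma 2, against 6.68 and 6.74 in nephron progenitors themselves. Over the 115766 peaks tested below, the log2 profiles of the stromal clusters had a Pearson correlation of 0.788 and 0.777 within the P0 samples. Stroma 1 correlated next best with nephron progenitors (0.642) in sample 1 and with endothelial cells (0.660) in sample 2, and stroma 2 with podocytes (0.584 and 0.609). The same cluster correlated at 0.941 between samples for stroma 1 and 0.973 for stroma 2. Peaks share depth and base composition and are not replicates, so these coefficients are a description.

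The clusters were compared at single peaks by summing, for each peak, the nuclei in which it was open, per sample and cluster, and fitting edgeR's quasi-likelihood test with the sample as a block. Of 115766 peaks tested, 22798 (19.7%) were more open in stroma 1 and 24401 (21.1%) in stroma 2 at a Benjamini-Hochberg adjusted p of at most 0.05. The difference was over 2-fold for 14241 and 18659 of these. The clusters were drawn by the authors from the chromatin of the same nuclei, so the adjusted p-values rank peaks and genes and do not test whether the clusters exist. With 4 sums and 1 residual degree of freedom the fit also borrows nearly all of its spread from other peaks. It says little about how litters or animals differ. The common dispersion, the spread beyond counting, was 9.77e-05 in both the peak and the gene fit. The adjusted p-values and the ± values below therefore lie close to counting error over nuclei. DESeq2 called 6176 and 6532 peaks, and leaving out P0 sample 1 or P0 sample 2 left 2034 or 2364 towards stroma 1 and 4206 or 4746 towards stroma 2.

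The peaks on the stroma 1 side lay at gene starts more often than those on the stroma 2 side. A transcription start site lay under 16.9% of the peaks more open in stroma 1 and 4.37% of those more open in stroma 2, against 15.5% of all tested peaks. With open calls summed per gene over start-site peaks only, the same test called 874 genes towards stroma 1 and 1009 towards stroma 2. A peak is either open or not in a nucleus, and stroma 2 nuclei were deeper. The part of depth in the position of the called peaks was not tested. Introns held 37.8% and 46.3% (40.0% of all) and sequence outside genes and their promoters held 32.8% and 36.7% (30.8% of all). The median GC share of the middle 300 bases was 47.7% and 45.7%, against 48.3% over all tested peaks.

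The same peaks were then looked up in the cell types outside the stroma. Among peaks open in at least 10% of nuclei of the higher cluster in both samples, 4459 were more open in stroma 1 and 3595 in stroma 2. Nuclei were thinned to 3000 open peaks and shallower ones left out, which kept 541 and 404 stroma 1 and 1126 and 983 stroma 2 nuclei. At that depth 65.6% of the 4459 stroma 1 peaks were open in a larger share of nuclei in at least 1 of the 11 non-stromal types, most often podocytes (41.0% of the peaks). For the 3595 stroma 2 peaks this share was 24.2%. The peaks had been chosen on shares before thinning, and those of stroma 1 were open in more nuclei of their own cluster (median thinned share 9.63% against 6.01%), so the pools are described and not compared by a test. Among peaks that differed over 2-fold, the shares came closer together, at 24.3% of 734 peaks and 15.6% of 1413 peaks. The 734 stroma 1 peaks had a median thinned share of 7.22% in stroma 1, 2.73% in stroma 2, 1.14% in nephron progenitors and 0.924% in endothelial cells, and in whichever non-stromal type was highest at a peak the median was 3.54%. The 1413 stroma 2 peaks had 5.61% in stroma 2, 1.85% in stroma 1 and medians of at most 0.480% in each other type, and 1.72% in whichever non-stromal type was highest. Thinning left 55 and 29 immune, 34 and 52 intercalated and 43 and 48 distal convoluted tubule nuclei in P0 samples 1 and 2. A single open nucleus there gives a high share, which raises the values for any or the highest of the 11 types. Taken alone, each of these types had a median of 0 in both pools over 2-fold.

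Among peaks open in at least 10% of nuclei of the higher cluster in both samples, the 6 with the largest difference in each direction were open in at most 1.22% of the nuclei of the other cluster. The peak near Tspan5 (chr3:138715505-138716145) was open in 10.1% and 12.2% of stroma 1 nuclei and in 0.306% and 0.437% of stroma 2 nuclei, a log2 difference of 5.23 ± 0.32 (SE; adjusted p = 2.31e-56). A peak 19.9 kb from the start of Igfbp5, which encodes an insulin-like growth factor binding protein (chr1:72894417-72895091), followed with 10.0% and 10.6% against 0.458% and 0.349% (4.98 ± 0.32). The other stroma 1 peaks lay outside genes, nearest to the starts of Adtrp, Gm21663, Impg1 and Olfm4 at distances of 38.7 to 176 kb, with log2 differences of 3.93 to 4.43. In stroma 2 the intronic Kcnd3 peak (chr3:105500647-105501606), in a gene for a voltage-gated potassium channel, was open in 14.7% and 16.8% of nuclei against 0.290% and 0.611% in stroma 1 (log2 difference -4.79 ± 0.32, adjusted p = 1.46e-42). The intronic peak of P3h2 (chr16:26078981-26079534), which encodes a prolyl 3-hydroxylase that modifies collagen, was open in 12.5% and 11.9% against 0.435% and 0.204% (-4.75 ± 0.37). The remaining stroma 2 peaks lay in an intron of the DNA repair gene Rad51b (chr12:79305903-79306569, 18.6% and 18.2% against 0.725% and 0.815%) and outside genes nearest to Emp1, Erv3 and Cd180, at 119 to 225 kb. All 12 differences kept their direction and their adjusted p under 0.05 under all 12 alternatives that were run for peaks. They were picked for the largest differences in the same counts, so this was likely from the start and says little about other peaks. Adult nuclei were shallower, with medians of 1919.5, 2466 and 4547 open peaks in stroma 1 and 3465.5, 3384 and 3311 in stroma 2, and few of them had these peaks open. The P3h2 peak was open in 31 of 1085 adult stroma 2 nuclei and 3 of 298 adult stroma 1 nuclei, and the Kcnd3 peak in 17 and 1.

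By the ratio of its shares in both peak sets, the motif that differed most was GLI. TGGGTGGTC, the sequence bound by the Gli factors of hedgehog signaling, was searched on both strands in the middle 300 bases of peaks that did not cover a start site. It was in 0.771% of the peaks more open in stroma 2 (180 of 23333), 0.116% of those more open in stroma 1 (22 of 18938) and 0.348% of all tested peaks. Matches therefore remained rare, and most stroma 2 peaks had none; over whole peaks the shares were 1.34%, 0.322% and 0.705%. Of the 6 stroma 2 peaks described above 2 held the motif, those of Kcnd3 and P3h2 printed above. At the hedgehog receptor gene Ptch1, 2 called peaks held the motif, and both were more open in stroma 2. The peak over a start site (chr13:63572976-63574043) was open in 12.2% and 14.1% of stroma 2 nuclei against 4.35% and 8.35% of stroma 1 nuclei (log2 difference -0.73 ± 0.17), and the intronic peak (chr13:63566156-63566741) in 22.5% and 25.3% against 11.9% and 14.3% (-0.51 ± 0.11). Another peak over a Ptch1 start (chr13:63563196-63564533), with no such motif in its middle, was called towards stroma 1 (0.32 ± 0.10), with 19.3% and 20.8% of stroma 1 and 19.7% and 21.8% of the deeper stroma 2 nuclei.

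**Figure D1:**
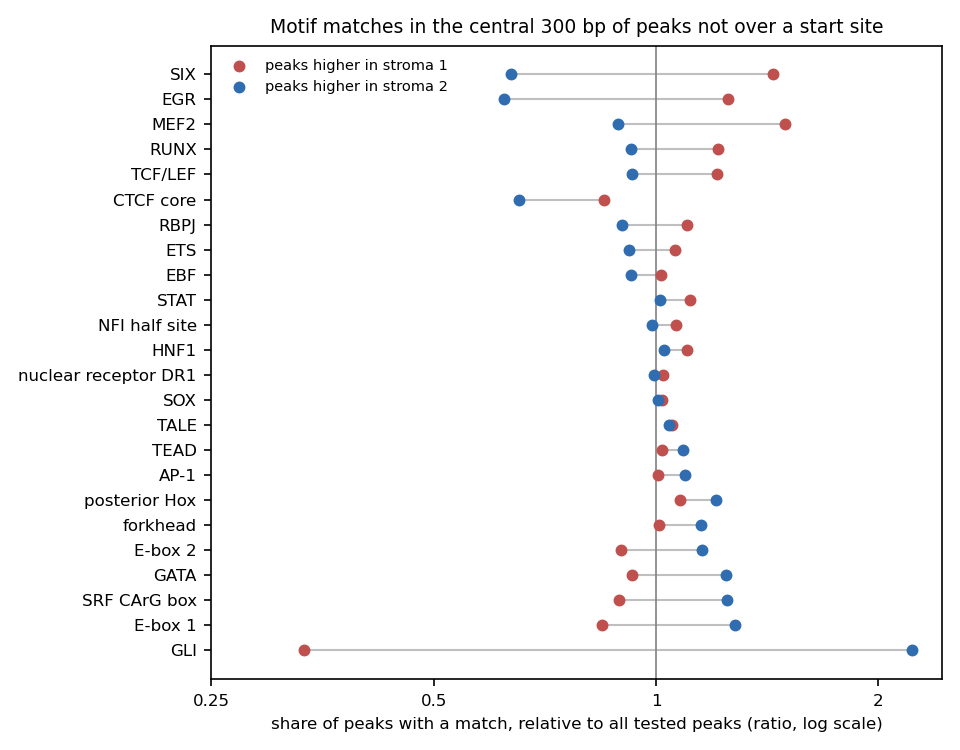
Share of peaks outside start sites that hold each of 24 motifs, divided by the share among all tested peaks (log axis), for peaks more open in stroma 1 (red) and stroma 2 (blue) at P0. GLI is the most separated motif, with shares of 0.116% and 0.771%, followed by that of the Six2 family with 5.59% and 2.47%.

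The other motifs in the plot of motif shares had smaller ratios, although the commoner ones differed by more percentage points. The E-box CAGCTG was in 31.1% of stroma 2 peaks, 20.5% of stroma 1 peaks and 24.3% of all, the AGATAA motif of GATA factors in 19.95%, 14.9% and 16.0%, and the CArG box of serum response factor in 2.21%, 1.58% and 1.77%. On the stroma 1 side were TCAGGTT (Six2 family), in 5.59% of stroma 1 and 2.47% of stroma 2 peaks (3.89% of all), GCGTGGG (EGR; 2.55%, 1.27% and 2.04%), MEF2 (1.44%, 0.853% and 0.962%), AACCACA (RUNX; 8.98%, 6.86% and 7.42%) and CTTTGAT (TCF/LEF; 6.43%, 4.93% and 5.32%). The TCAGGTT letters are bound by a family of homeobox factors that includes Six2 of nephron progenitors, whose own gene is taken up with the markers below. Motifs of TEAD factors (GGAATG) were in 20.96% and 22.4% of stroma 1 and stroma 2 peaks, and those of SOX factors (ACAATGG) in 3.68% and 3.62%. The AP-1 motif, spelled TGANTCA with N for any base, was in 10.5% and 11.4%. The CTCF core CCACNAGG also passed the factor of 1.3 towards stroma 1, with 5.34% and 4.09%. Both shares lay under the 6.28% of all tested peaks. A second E-box, CATCTG, was in 28.7% of stroma 2 peaks, 22.3% of stroma 1 peaks and 24.9% of all.

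Gene activity was then compared, as the open calls summed over all peaks in a gene and 2 kb upstream of it and given as CPM, open calls per 1000000 open calls of the cluster. Of 23387 genes tested, 2916 (12.5%) were higher in stroma 1 and 3732 (16.0%) in stroma 2, with 513 and 721 of these over 2-fold. The median log2 difference over all genes was 0.01, and the median size of a called difference was 0.50. With 2 values each, the CPM of the clusters did not overlap for 38.3% of all genes towards stroma 1 and 23.8% towards stroma 2. A lack of overlap therefore says little by itself. CPM carries no TMM scaling, which the tested log2 differences do, so CPM values and log2 differences are on slightly different scales. DESeq2 called far fewer genes, 405 (1.73%) and 841 (3.6%). In the lists below, the 12.5% and 16.0% of all genes are shares of edgeR. Counts of DESeq2 are to be read beside its own 1.73% and 3.6%. A gene's window also takes peaks of overlapping genes, and the share of calls in such shared windows is given below for some of the named genes. A gene without a stated share can still have one.

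**Figure D2:**
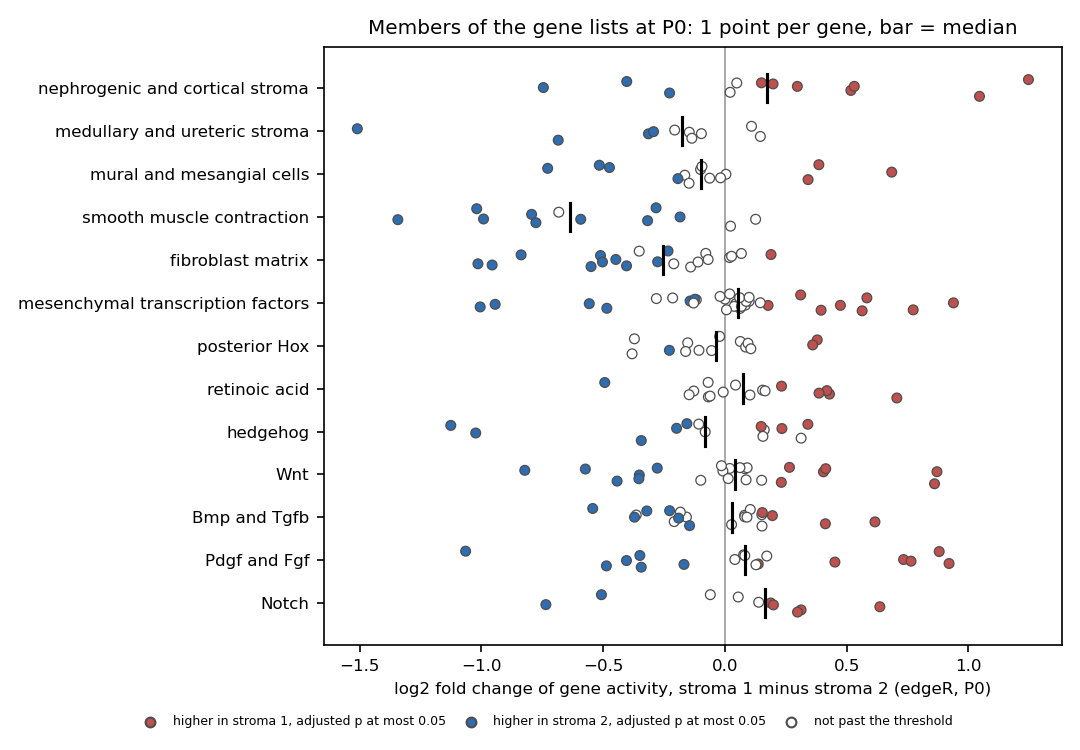
log2 difference of gene activity between stroma 1 and stroma 2 at P0 for the members of 13 gene lists, 1 point per gene, with the median of each list as a bar. Red and blue points passed an adjusted p of 0.05 towards stroma 1 or stroma 2; the smooth muscle list has the lowest median (-0.64) and the cortical list the highest (0.17).

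The genes of the nephrogenic and cortical stroma lay mostly on the side of stroma 1. Of 12 genes, 7 were higher in stroma 1 and 3 in stroma 2, with a median log2 difference of 0.17 (DESeq2 called 4 and 1), beside the 12.5% and 16.0% of all genes. Fibin, a secreted protein of the nephrogenic stroma (chr2:110360917-110363183), had 26.4 and 29.8 CPM in stroma 1 and 11.9 and 10.7 in stroma 2, a log2 difference of 1.25 ± 0.14 (adjusted p = 6.43e-16). Its start-site peak was open in 14.6% and 19.6% of stroma 1 nuclei and 8.63% and 8.38% of stroma 2 nuclei. Crabp1, which binds retinoic acid in the cytoplasm, had 33.7 and 32.3 against 16.9 and 13.7 CPM (1.05 ± 0.13, adjusted p = 4.13e-14), but with start-site peaks alone its difference was -0.72 and did not pass the test. Aldh1a2, the enzyme that makes retinoic acid in the stroma (chr9:71215789-71296243), had 70.6 and 73.6 against 49.4 and 46.1 (0.53 ± 0.07, adjusted p = 1.85e-09). The groups did not overlap for these 3 genes, as for 38.3% of all genes towards stroma 1.

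Foxd1, the forkhead factor that defines the stromal progenitors, was open in both clusters. It had 37.7 and 33.2 CPM in stroma 1 and 25.1 and 22.4 in stroma 2 (chr13:98354242-98359305), a log2 difference of 0.52 ± 0.11 (adjusted p = 7.7e-05 with edgeR and 0.328 with DESeq2). The peak over its start was open in 19.9% and 21.4% of stroma 1 and 17.6% and 16.7% of stroma 2 nuclei, and after thinning in a larger share of podocytes (22.3% and 19.0%) than of either stromal cluster. Ntn1, a netrin of the cortical stroma, had 129 and 129 against 102 and 123 (0.15 ± 0.05; adjusted p = 0.0366 with edgeR and 0.897 with DESeq2). On the other side was Gucy1a1, a subunit of the nitric oxide receptor guanylate cyclase, with 65.6 and 55.3 against 104 and 91.1 CPM (-0.75 ± 0.07, adjusted p = 3.99e-22).

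In the medullary and ureteric stroma list, no gene was higher in stroma 1 and 4 of 10 were higher in stroma 2, beside 16.0% of all genes (median -0.18; DESeq2 called 2). Wnt4, a Wnt ligand of the medullary stroma and of new nephrons (chr4:137277489-137299726), had 29.9 and 31.7 CPM in stroma 2 against 11.8 and 10.6 in stroma 1, a log2 difference of -1.51 ± 0.14 (adjusted p = 3.32e-21). Its start-site peak was open in 13.4% and 15.1% of stroma 2 and 2.90% and 4.07% of stroma 1 nuclei, and in nephron progenitors it was also open after thinning (11.8% and 12.95%). Alx1, a homeobox factor, had 84.4 and 98.4 against 61.7 and 55.6 (-0.68 ± 0.07, adjusted p = 7.32e-18), with 34% of its calls in windows shared with other genes. Wnt5a (-0.31) and the ureteric factor Tbx18 (-0.29) differed less and passed with edgeR only (DESeq2 adjusted p = 0.640 and 0.814). Lef1, a Wnt target and effector, had 59.9 and 46.0 in stroma 1 and 46.3 and 48.9 in stroma 2, and the groups overlapped.

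Genes of smooth muscle contraction were the list most on the side of stroma 2. Of 12 genes 9 were higher in stroma 2 and 0 in stroma 1 with edgeR, beside 16.0% and 12.5% of all genes. Their median was -0.64. DESeq2 called 5 and 0, beside 3.6% and 1.73% of all genes. Lmod1, which nucleates actin filaments in smooth muscle (chr1:135324807-135368065), had 54.7 and 53.6 CPM against 25.1 and 18.9 (-1.34 ± 0.10, adjusted p = 2.27e-31). Tagln, the actin-binding protein transgelin (chr9:45929619-45936058), had 40.0 and 42.5 against 22.2 and 19.9 (-1.02 ± 0.11, adjusted p = 8.1e-16), and its start-site peak was open in 16.3% and 17.9% of stroma 2 and 5.07% and 5.91% of stroma 1 nuclei. Myh11, the smooth muscle myosin heavy chain (chr16:14194535-14291372), had 64.3 and 66.3 against 36.9 and 31.1 (-0.99 ± 0.09, adjusted p = 1.17e-23), and Synpo2 254 and 255 against 164 and 140 (-0.79 ± 0.05). For each of these genes both stroma 2 values lay above both stroma 1 values, as for 23.8% of all genes. Acta2, smooth muscle actin, differed less, with 52.1 and 50.2 against 46.0 and 39.1 (-0.32 ± 0.08; DESeq2 adjusted p = 0.587).

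Mural and mesangial markers did not lie on 1 side. Of 14 genes 3 were higher in stroma 1 and 4 in stroma 2 (median -0.10; DESeq2 called 0 and 2), beside 12.5% and 16.0% of all genes. Pdgfrb, the receptor that marks pericytes and mesangial cells, had 132 and 140 CPM in stroma 1 and 132 and 128 in stroma 2, a log2 difference of 0.00 ± 0.05. Agtr1a, the angiotensin II receptor, had 85.7 and 79.6 in stroma 2 against 59.6 and 43.5 (-0.73 ± 0.07), and Rgs5, a pericyte regulator of G protein signaling, 90.8 and 79.3 against 64.9 and 59.3 (-0.52 ± 0.07). Ren1, the renin of juxtaglomerular cells, had 13.6 and 12.4 in stroma 1 and 7.59 and 8.00 in stroma 2 (0.68 ± 0.20; adjusted p = 0.00343 with edgeR and 0.599 with DESeq2).

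Fibroblast matrix genes lay on the stroma 2 side, 10 of 20 against 1, where all genes had 16.0% and 12.5%, with a median of -0.26 (DESeq2 called 5 and 0). Col14a1, a fibril-associated collagen (chr15:55307750-55520803), had 244 and 230 CPM in stroma 2 and 124 and 120 in stroma 1 (-1.01 ± 0.05, adjusted p = 5.79e-83). Of its 30 tested peaks, which enter this sum, 18 were more open in stroma 2 and none in stroma 1, beside 21.1% and 19.7% of all tested peaks. Col3a1, the chain of type III collagen (chr1:45311538-45349706), had 45.6 and 41.6 against 28.5 and 22.1 (-0.84 ± 0.10, adjusted p = 2.41e-12), with its start-site peak open in 19.7% and 20.5% against 9.42% and 8.76% of nuclei. The glycoprotein gene Tnc (-0.96 ± 0.07) shared 96% of its calls with windows of other genes. Col1a1 had 77.7 and 81.4 in stroma 1 and 64.2 and 69.9 in stroma 2, a small difference to the other side (0.19 ± 0.07; DESeq2 adjusted p = 0.874), and Col1a2 at -0.21 did not pass the test.

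**Figure D3:**
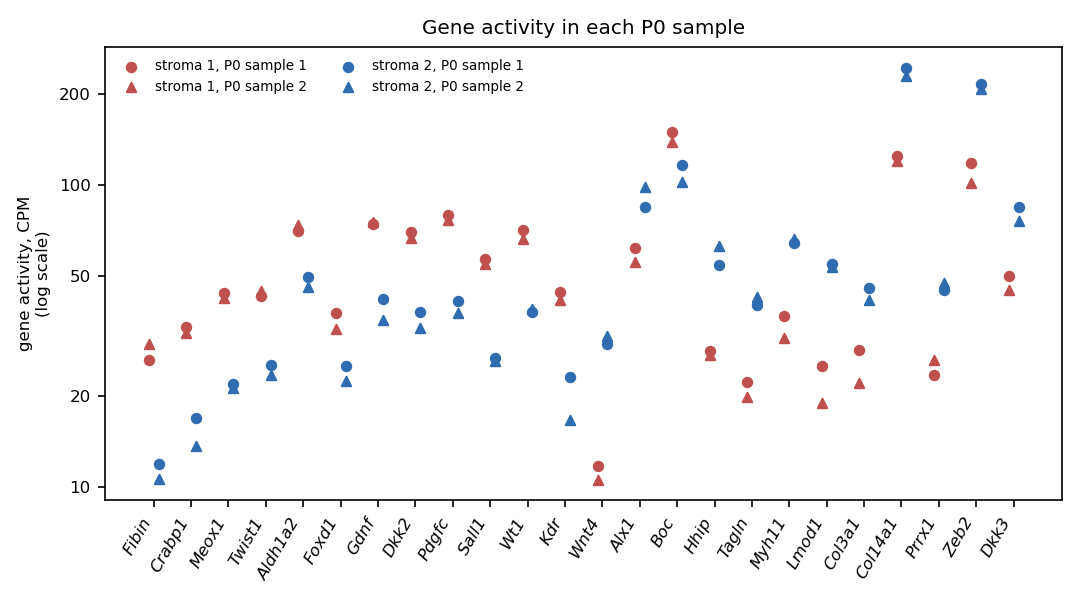
Gene activity of 24 named genes in each cluster and P0 sample, as CPM on a log axis; circles are P0 sample 1, triangles P0 sample 2, red stroma 1 and blue stroma 2. For Wnt4 the 4 values run from 10.6 and 11.8 in stroma 1 to 29.9 and 31.7 in stroma 2, and for Twist1 from 23.5 and 25.3 in stroma 2 to 42.9 and 44.4 in stroma 1.

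Of 32 transcription factor genes of mesenchyme 8 were higher in stroma 1 and 6 in stroma 2, the latter near the 16.0% of all genes (median 0.05; DESeq2 called 3 and 2). Twist1, a basic helix-loop-helix factor of mesenchyme (chr12:33957671-33959829), had 42.9 and 44.4 CPM in stroma 1 and 25.3 and 23.5 in stroma 2 (0.77 ± 0.10, adjusted p = 3.49e-11), with its start-site peak open in 23.0% and 28.3% against 17.3% and 18.2% of nuclei. The homeobox gene Meox1 had 43.9 and 42.2 against 21.9 and 21.2 (0.94 ± 0.11), and the orphan nuclear receptor gene Nr2f1 79.8 and 72.7 against 50.6 and 47.1 (0.58 ± 0.07), which at start-site peaks alone was -0.041. Towards stroma 2 were Zeb2, a zinc finger repressor, with 216 and 207 against 118 and 101 (-1.01 ± 0.05), and Prrx1, a homeobox factor of fibroblasts, with 44.8 and 47.2 against 23.5 and 26.4 (-0.94 ± 0.10). The related receptor gene Nr2f2 had 125 and 120 in stroma 1 and 119 and 117 in stroma 2. The Hox genes of the posterior clusters, which carry position along the body axis, were mostly not called, with counts near or under the shares of all genes: 2 of 14 were higher in stroma 1 (Hoxc9 at 0.38 and Hoxc11 at 0.36) and 1 in stroma 2 (Hoxd11 at -0.23), and DESeq2 called none of them (adjusted p = 0.323, 0.782 and 0.708).

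In the hedgehog pathway, no ligand gene was called, while coreceptor, decoy and Gli genes were. Of 13 genes 5 were higher in stroma 2 and 3 in stroma 1 (median -0.08; DESeq2 called 2 and 0), beside 16.0% and 12.5% of all genes. Among the ligands, Shh had 7.85 and 8.70 CPM in stroma 1 and 6.01 and 6.77 in stroma 2, and Ihh 9.41 and 14.9 against 10.9 and 13.7; neither passed the test. Of the genes that the pathway induces and that hold it back, Hhip, a decoy that binds hedgehog ligands (chr8:79965851-80058006), had 54.4 and 62.9 in stroma 2 against 28.2 and 27.3 in stroma 1 (-1.13 ± 0.09, adjusted p = 7.51e-26). The groups did not overlap, as for 23.8% of all genes towards stroma 2. Gli1 had 69.1 and 78.9 against 55.4 and 66.2 (-0.34 ± 0.07; DESeq2 adjusted p = 0.322), all of it in windows shared with Arhgap9. Ptch1 summed over its whole gene did not pass the test (181 and 189 in stroma 1, 191 and 192 in stroma 2), in contrast to its GLI peaks above, and the coreceptor gene Boc was higher in stroma 1 with 150 and 139 against 117 and 102 (0.34 ± 0.05; DESeq2 adjusted p = 0.0789).

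Of the 16 other genes of retinoic acid metabolism and response, 5 were higher in stroma 1 and 1 in stroma 2 (median 0.07; DESeq2 called 0 and 1), beside 12.5% and 16.0% of all genes. The synthesis enzyme gene Aldh1a1 (0.43 ± 0.12) and the breakdown enzyme genes Cyp26b1 (0.42 ± 0.10) and Cyp26c1 (0.71 ± 0.28) passed with edgeR and not with DESeq2 (adjusted p = 0.663, 0.573 and 0.858). Rarb, a retinoic acid receptor gene, had 328 and 310 in stroma 2 against 250 and 222 (-0.49 ± 0.04, adjusted p = 1.49e-27), but its start-site peaks went the other way (0.32, adjusted p = 0.0123).

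Genes of the Dkk family stood on opposite sides. Of 22 Wnt genes 6 were higher in stroma 1 and 6 in stroma 2 (median 0.04; DESeq2 called 2 and 1), beside 12.5% and 16.0% of all genes. Dkk2, a secreted Wnt antagonist, had 69.8 and 66.8 CPM in stroma 1 and 38.0 and 33.5 in stroma 2 (0.87 ± 0.08, adjusted p = 5.65e-21), and Dkk1 14.9 and 16.8 against 8.44 and 8.22 (0.86 ± 0.19; DESeq2 adjusted p = 0.261). Dkk3, of the same family by sequence, had 84.5 and 76.2 in stroma 2 and 49.9 and 44.7 in stroma 1 (-0.82 ± 0.07, adjusted p = 1.65e-21). The ligand genes Wnt9b (-0.57 ± 0.23), known from collecting duct epithelium, and Wnt2b (-0.44 ± 0.12), known from stroma, were higher in stroma 2 with edgeR and did not pass with DESeq2 (adjusted p = 0.843 and 0.569).

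Growth factor ligand genes were found on both sides. Of 17 genes of the Pdgf and Fgf list 6 were higher in each cluster (median 0.08; DESeq2 called 3 and 1; all genes 12.5% and 16.0%), all 6 of stroma 1 being ligand genes and the 6 of stroma 2 being Fgf7, Fgf10, Pdgfa and 3 Fgf receptor genes. Gdnf, the ligand of Ret that drives ureteric branching (chr15:7810846-7837575), had 74.3 and 75.2 CPM in stroma 1 and 41.9 and 35.7 in stroma 2 (0.88 ± 0.08, adjusted p = 3.02e-23), and Pdgfc, a ligand of Pdgf receptors (chr3:81036416-81214040), 79.2 and 76.4 against 41.2 and 37.5 (0.92 ± 0.08, adjusted p = 3.48e-26). Of the calls of Pdgfc, 33.4% lie in windows shared with other genes. Fgf2 had 139 and 120 against 77.6 and 68.3 (0.76 ± 0.06), but all its calls lie in windows shared with Nudt6. The receptor gene Fgfr4 had 15.8 and 19.3 in stroma 2 against 7.85 and 9.63 (-1.07 ± 0.18; DESeq2 adjusted p = 0.0857), and at start-site peaks 0.10.

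In the Bmp and Tgfb list 4 of 21 genes were higher in stroma 1 and 6 in stroma 2 (median 0.03; DESeq2 called 0 and 3), beside 12.5% and 16.0% of all genes. The ligand gene Bmp6 had 172 and 170 in stroma 2 against 131 and 112 (-0.54 ± 0.05) and the signal transducer gene Smad3 255 and 245 CPM against 195.9 and 208 (-0.37 ± 0.05). Inhba, the activin subunit, was at 0.62 ± 0.14 and passed with edgeR only (DESeq2 adjusted p = 0.321). In the Notch list 5 of 10 genes were higher in stroma 1 and 2 in stroma 2 (median 0.16; DESeq2 called 0 and 1; all genes 12.5% and 16.0%). The ligand gene Jag1 had 102 and 103 in stroma 2 against 75.1 and 74.9 (-0.51 ± 0.06), and Dll1 was at -0.74 ± 0.15 and Jag2 at 0.64 ± 0.18, neither of them called by DESeq2 (adjusted p = 0.258 and 0.570).

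Over all protein-coding genes with at least 200 open calls in the higher cluster in each P0 sample, the largest differences were these. Towards stroma 1 stood Nceh1, a cholesteryl ester hydrolase (chr3:27182965-27284608), with 173 and 182 CPM against 64.7 and 65.1 (1.39 ± 0.05, adjusted p = 6.71e-118). Of its 12 tested peaks, which enter this sum, 9 were more open there, beside 19.7% of all tested peaks. Fam163a (1.27), Nyap2 (1.21), Tprg (1.14), the neuregulin receptor gene Erbb4 (1.08), the ectodysplasin receptor gene Edar (1.07), Hmgcll1 (1.05), Pdgfc (0.92), Etv4 (0.91), an ETS factor downstream of Fgf and Ret signals, and Them7 (0.90) followed. The start-site peak of Etv4 was open in 23.2% and 29.9% of stroma 1 and 15.9% and 18.6% of stroma 2 nuclei.

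Towards stroma 2, Kcnd3 (chr3:105452330-105674002) rested on the most counts, with 165 and 162 CPM against 57.3 and 50.9 (-1.65 ± 0.06, adjusted p = 4.51e-126). Of its 23 tested peaks 19 were more open there and none in stroma 1, beside 21.1% and 19.7% of all tested peaks. These peaks enter the gene's own sum, and 32.3% of its calls lie in windows shared with other genes. The kinase subunit gene Prkag3 (-1.89), the ephrin receptor gene Epha8 (-1.74), Ccdc175 (-1.68, in a window that overlaps Jkamp), the chemokine gene Cxcl14 (-1.63), Wnt4, Iqcf3 (-1.46, 84% of calls in windows shared with others), the zinc finger gene Zfp536 (-1.44), Psma8 (-1.44) and Impg2 (-1.42) made up the rest. Cxcl14 had 21.8 and 23.0 in stroma 2 and 7.06 and 8.08 in stroma 1. All 20 of these calls held with DESeq2, though the genes were picked for large differences in the same counts. At start-site peaks alone Erbb4 (0.34), Edar (0.34), Hmgcll1 (0.76) and Epha8 (-0.38) did not pass the test (adjusted p = 0.527, 0.397, 0.146 and 0.668), and Nyap2, Tprg, Ccdc175, Iqcf3 and Psma8 were not tested there.

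Markers of the cell types that border the stroma were counted in the same way. In stroma 1 the clearest were Sall1, a zinc finger factor of nephron progenitors (57.0 and 54.7 CPM against 26.7 and 26.1, log2 difference 1.02 ± 0.09), Wt1, a factor of podocytes and nephron progenitors (71.1 and 66.2 against 38.1 and 38.8, 0.78 ± 0.08), and Kdr, the endothelial Vegf receptor (44.2 and 41.6 against 23.1 and 16.7, 1.04 ± 0.11). The nephron progenitor and podocyte lists did not follow as a whole (medians -0.12 and -0.02). The endothelial list had a median of 0.20, with genes called on both sides. It took 3.85 and 3.68 per 10000 open calls in stroma 1 and 3.52 and 3.42 in stroma 2. The counts of these lists are to be read beside the 12.5% and 16.0% of all genes. Of 10 nephron progenitor genes 1 was higher in stroma 1 and 1, Crym, in stroma 2, and Cited1 and Eya1 passed in neither direction, nor did Six2 with 8.63 and 9.01 CPM in stroma 1 and 11.6 and 10.1 in stroma 2 (adjusted p = 0.185). Of 8 podocyte genes 1 was higher in stroma 1 and 2 in stroma 2, with Nphs1 not passing. Of 10 endothelial genes 5 were higher in stroma 1 and 3 in stroma 2, among them Tie1 (0.98 ± 0.25) on the first side and Pecam1 (-0.57 ± 0.07) and Cdh5 (-0.59 ± 0.15) on the other. DESeq2 called 1 and 1 of the endothelial genes, 1 and 0 of the nephron progenitor genes and 1 and 1 of the podocyte genes. Of all genes it called 1.73% and 3.6%. Tie1, Cdh5 and Crym passed neither with DESeq2 nor with thinned nuclei. Ptpro of podocytes (-0.75 ± 0.07), Cubn of the proximal tubule (-0.96 ± 0.06) and Ret of the collecting duct (-0.76 ± 0.11) were higher in stroma 2. At start-site peaks alone Cdh5 had 1.07 and Cubn 0.80, the opposite direction, and neither passed the test there (adjusted p = 0.0665 and 0.376).

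The remaining marker lists held 0 genes towards stroma 1 and 2 of 8 towards stroma 2 for the proximal tubule, 0 and 1 of 7 for loop of Henle and distal tubule, 0 and 2 of 7 for the collecting duct, 1 and 1 of 4 for intercalated cells, 0 and 1 of 5 for immune cells and 0 and 0 of 7 for Schwann and neural cells. Over all genes the shares were 12.5% and 16.0%, and most of these counts of few genes lay near or under them. Of the defining markers with too few calls to be tested, Umod had at most 3.73 CPM in any of the 4 sums, Atp6v1g3 2.62, Fxyd4 0.889, Foxi1 0.785, C1qa 0.777 and C1qb 0.523. The part that nuclei or free DNA of other cell types have in any of these differences was not tested.

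Single nuclei fell into the clusters with some overlap. Peaks were chosen in 1 P0 sample as open in at least 5% of nuclei of a cluster and at least 2-fold more often than in the other, and a nucleus of another sample, thinned to 3000 open peaks, was scored by the share of its calls in the chosen peaks that fell in stroma 1 peaks. This score was made after the data had been seen, and the clustering had used the scored nuclei too. With peaks from P0 sample 1 the median score in P0 sample 2 was 66.4% in 404 stroma 1 nuclei and 15.0% in 983 stroma 2 nuclei, and with peaks from P0 sample 2 it was 68.7% and 18.9% in P0 sample 1. In 98.5% of pairs of 1 nucleus from each cluster the stroma 1 nucleus scored higher, in both directions. Of the stroma 1 nuclei, 21 of 404 (5.20%) and 42 of 541 (7.76%) scored below the 95th percentile of stroma 2. Nephron progenitors and endothelial cells, which are neither, had medians of 49.0% and 47.6% in P0 sample 2 and 52.4% and 54.1% in P0 sample 1.

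**Figure D4:**
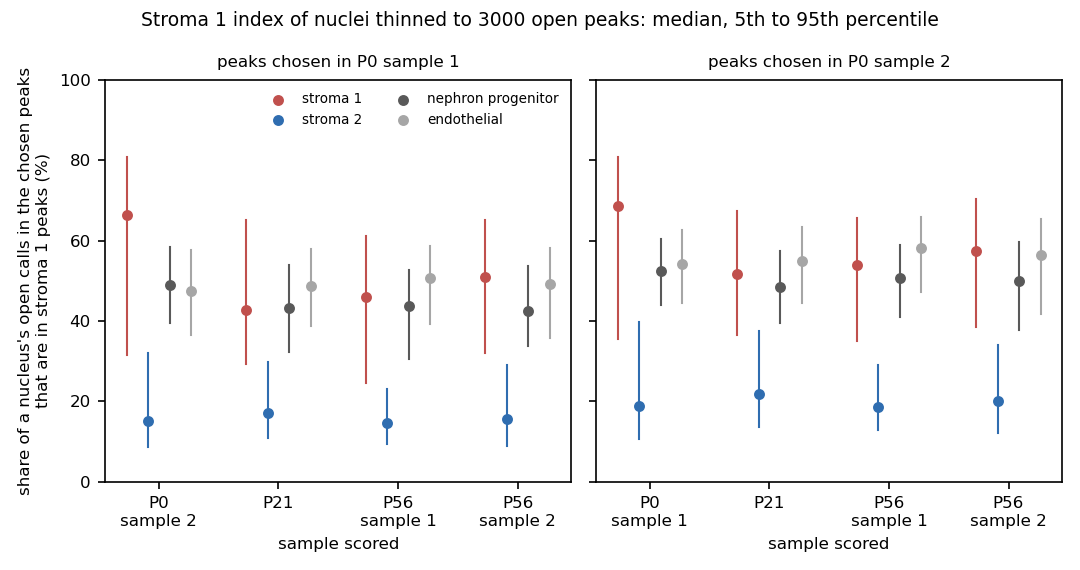
Share of a nucleus's open calls in the chosen peaks that fell in stroma 1 peaks, after thinning to 3000 open peaks: median (point) and 5th to 95th percentile (line) of stroma 1, stroma 2, nephron progenitor and endothelial nuclei, by the sample scored. At P0 the stroma 1 medians are 66.4% and 68.7% and the stroma 2 medians 15.0% and 18.9%; in the adult samples stroma 1 lies between 42.9% and 57.5%, in the range of the other cell types.

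In the adult libraries the score stayed low in stroma 2, while stroma 1 scored near cell types outside the stroma. The stroma 2 medians in the 3 adult samples were 14.6 to 17.2% with peaks from P0 sample 1 and 18.5 to 21.8% with peaks from P0 sample 2. The stroma 1 medians were 42.9 to 51.0% and 51.6 to 57.5%. Those values rest on 35, 39 and 71 stroma 1 nuclei deep enough to be thinned, against 116, 318 and 201 of stroma 2. The score weighs 2 sets of P0 peaks and does not say what a nucleus is. On the mural and mesangial list adult stroma 1 took a mean of 10.8 per 10000 open calls, against at most 5.50 outside the stroma. On the smooth muscle list it took 13.6, against at most 9.95. Adult stroma 1 ranked 2 of 13 types on both lists and on the endothelial list, and 3 on the proximal tubule list.

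The same contrast was tested in the adult samples, where stroma 1 numbered 298 nuclei and stroma 2 1085. Of 16383 peaks tested, 1178 (7.19%) were more open in stroma 1 and 2759 (16.8%) in stroma 2, and of 16002 genes 1048 (6.55%) and 1343 (8.39%). Leaving out P56 sample 2 lowered the stroma 1 calls to 615 peaks and 494 genes. Among the 24401 peaks called towards stroma 2 at P0, 2226 had enough calls to be tested in the adults, and 90.3% of these had the same sign, with 1496 called the same way and 23 the opposite way. Of 22798 stroma 1 peaks 3544 could be tested, and 72.8% had the same sign, with 493 and 223 called. Peaks not called at P0 had the same sign in 62.3% of 10509 cases. For genes the shares were 71.6% of 2512 (stroma 2), 68.8% of 1861 (stroma 1) and 54.8% of 11624 (not called). The adult nuclei had been clustered together with the P0 nuclei, so agreement in sign was partly built in. Adult stroma 2 had 878544, 1879672 and 1448349 open calls (P21, P56 samples 1 and 2), and stroma 1 294254, 297465 and 536670. Most peaks called at P0 could not be tested, and these depths bear on which could. The shares of the stroma 1 and stroma 2 sides are therefore not set against each other.

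**Figure D5:**
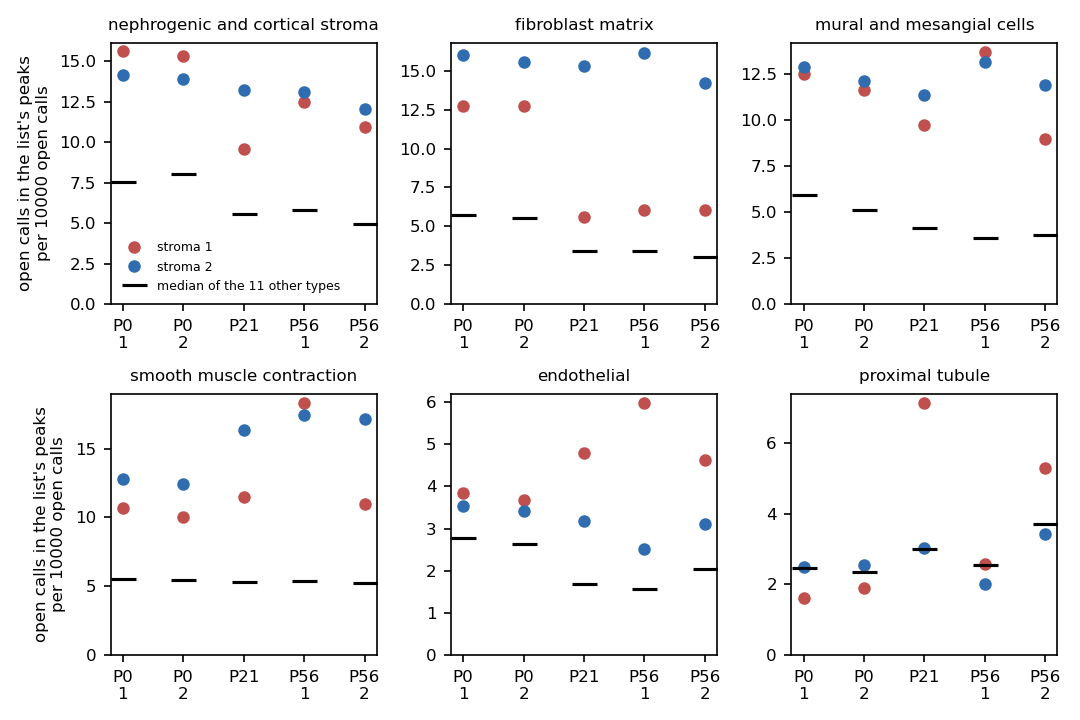
Open calls in the peaks of 6 gene lists per 10000 open calls in each sample, for stroma 1 (red), stroma 2 (blue) and the median of the 11 other cell types (bar), with axes from 0. The fibroblast matrix level of stroma 1 goes from 12.7 and 12.8 at P0 to between 5.61 and 6.07 in the adult samples, while that of stroma 2 stays between 14.2 and 16.2.

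In the adult samples the fibroblast matrix levels of the clusters lay further apart than at P0. The fibroblast matrix list took 5.61, 6.05 and 6.07 per 10000 open calls of adult stroma 1 (P21, P56 sample 1 and P56 sample 2) and 15.3, 16.2 and 14.2 of adult stroma 2, and 13 of 19 matrix genes tested were higher in adult stroma 2 and 0 in stroma 1. All counts of genes in this paragraph are to be read beside the adult shares of all genes, 6.55% towards stroma 1 and 8.39% towards stroma 2. The cortical stroma list was at 9.55, 12.5 and 10.96 in adult stroma 1 and 13.2, 13.1 and 12.1 in adult stroma 2, with 0 of 10 genes towards stroma 1 and 4 towards stroma 2. Smooth muscle genes were at 11.5, 18.4 and 10.96 against 16.4, 17.4 and 17.2, and P56 sample 1 stood apart in stroma 1. In adult stroma 1 the endothelial list was at 4.79, 5.98 and 4.62 against 3.18, 2.53 and 3.10 in stroma 2, with 6 of 8 genes higher in stroma 1 and 0 in stroma 2. The proximal tubule list was at 7.14, 2.59 and 5.31 against 3.04, 2.02 and 3.42, with 4 of 5 genes higher in stroma 1. Endothelial cells themselves had 26.1, 28.7 and 29.5 and proximal tubule cells 16.0, 12.7 and 16.6 on their own lists. Whether nuclei or DNA of these types account for the adult differences was not tested.

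Whether the difference between the clusters itself differed between P0 and adult was tested gene by gene with an interaction term over all 5 libraries. Of 21630 genes, the value of stroma 1 minus stroma 2 was larger at P0 for 1195 (5.52%) and larger in the adults for 897 (4.15%). Pdgfrb moved from 0.00 at P0 to -1.14 in the adults (interaction 1.18, adjusted p = 2.14e-07). Of the hedgehog genes, Boc went from 0.34 to -1.08 (1.46, adjusted p = 3.06e-09), while Hhip had -1.13 and -0.31 and did not pass the interaction test (adjusted p = 0.252). Among the smooth muscle genes Myh11 went from -0.99 to 0.16 (interaction -1.10, adjusted p = 0.000347) and Acta2 from -0.32 to 0.84 (-1.10, adjusted p = 0.000706). Dkk2, Sall1, Kdr, Erbb4 and Edar were higher in stroma 1 at both stages (adult log2 differences of 0.94, 1.15, 0.80, 1.12 and 1.26), and Kcnd3, Col3a1, Zeb2 and Prrx1 higher in stroma 2 at both (-1.38, -1.23, -0.70 and -1.47).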

How the data were processed

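Nuclei were isolated from whole kidneys and profiled on the 10x Chromium snATAC-seq platform. The authors aligned the fragments to mm10 (GRCm38) with Cell Ranger ATAC 1.1.0, clustered nuclei of all samples together with SnapATAC after Harmony, named clusters from marker genes, called peaks with MACS2 on the combined fragments of each cell type, and merged these peak sets. The deposited matrix is binary: a count of 1 where a nucleus had a fragment in a peak, over 28316 nuclei and 300755 peaks, with no scaling for depth. Doublet handling was left as the authors made it, and no nucleus was removed. Depth per cluster is given above, and it limits which peaks could be tested.

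Here the counts were summed per sample and cluster. Peaks and genes were filtered with filterByExpr (minimum count 10, minimum total 15), scaled by TMM and tested with glmQLFit and glmQLFTest of edgeR 4.0.16 (R 4.3.3) with the sample as a block, since both clusters came from the same library; p-values were two-sided and adjusted by Benjamini-Hochberg over all peaks or genes tested. Gene activity was the sum over peaks overlapping a gene or the 2 kb upstream in the annotation given with the GRCm38 reference; 26197 of 32183 annotated genes had a peak. Base sequence came from the same build. On simulated data with known changes at P0 the gene test recovered 88 of 100 genes changed 2-fold and 98 of 100 changed 4-fold, and the peak test 37 and 88 of 100. Only these features were changed and the spread was that of the fit, so the rates do not carry over to the real data. The alternatives were DESeq2 1.42.0, its size factors, no filter, no block, all 13 cell types or all 5 samples in the fit, each sample left out, nuclei thinned to 3000 open peaks, equal numbers of nuclei, the deepest 5% of nuclei left out, start-site peaks only, and Fisher's exact test over pooled nuclei. Peaks were placed in exons, UTRs, introns, promoters (5 kb upstream) or distal sequence, in that order.

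Members and gene lists were chosen with earlier results of these data known. Genes named were, for each list, the first 3 members and up to 4 called members with the largest difference, and over all protein-coding genes with at least 200 calls in the higher cluster of each P0 sample the 10 largest called differences in each direction; other list members are given as counts, and some items named by these rules are not reported here. Peaks named were the 6 with the largest difference in each direction among those open in at least 10% of nuclei of the higher cluster in both P0 samples; the Ptch1 peaks with a GLI match were picked after their values were seen. The scRNA-seq and bulk ATAC-seq libraries and the deposited embedding were not used here.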

Additional observations from a re-analysis of the deposited data

Results flagged for a closer look

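Among the 94 named genes called at P0, the difference between stroma 1 and stroma 2 itself differed between P0 and the adult samples for 31, by the edgeR interaction test over the 5 libraries (adjusted p at most 0.05). Over all 21630 genes tested the share was 9.67%, and the named genes include those picked for large P0 differences, so the counts are not set against each other. The values below are the P0 difference minus the adult difference on the log2 scale, where the difference is stroma 1 minus stroma 2. For 7 of the 31 the adult call went the opposite way: Acta2 (-1.10), Col1a1 (0.97), Boc (1.46), Pdgfa (-1.21), Hnf4a (-0.98), Pecam1 (-1.05) and Cdh5 (-1.72).

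The values above 0 were those of Col14a1 (1.505), Bmp6 (1.05), Smad3 (0.40), Fgf2 (1.28), Notch4 (0.60) and Dkk3 (1.62). Others above 0 were Alx1 (1.68), Hoxc9 (0.72), Hoxd11 (1.20), Aldh1a1 (1.07), Cyp26b1 (1.01), Nceh1 (0.61), Nyap2 (1.42), Hmgcll1 (1.98) and Them7 (0.85). Values below 0 were those of Myh11 (-1.10), Lmod1 (-0.92), Pdgfc (-0.90), Jag1 (-0.69), Dll1 (-1.07), Crym (-1.31), Ptpro (-1.05), Cubn (-1.10) and Prkag3 (-1.28).

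Adult stroma 1 rests on 298 nuclei in 3 libraries, and its endothelial and proximal tubule list levels were above those of adult stroma 2; the part of either in these values was not tested.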

How the results depend on the processing

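The counts of calls depended on the fit and on how many peaks passed its filter. Peaks tested numbered 115766 in the main fit, 66107 with all 5 samples, 57635 with thinned nuclei and 174406 with all 13 cell types. Of these, 40.8%, 34.6%, 26.5% and 19.2% were called. Genes tested numbered 23387 in the main fit, 21092 with thinned nuclei and 17227 with start-site peaks only. The named peaks held under every alternative, but they were picked for the largest differences in the same counts and say little about other peaks. Peaks towards stroma 1 and stroma 2 (22798 and 24401) became 6176 and 6532 with DESeq2, 9105 and 13762 with all 5 samples in the fit, 6952 and 8327 with thinned nuclei and 12790 and 44659 by Fisher's exact test over pooled nuclei, and 9678 and 23768 with all 13 cell types, where the stroma 1 share of calls fell from 48.3% to 28.9%. With 1 P0 sample left out they were 2034 to 2364 and 4206 to 4746, where the lone sample was assumed to vary like the adult ones. Genes (2916 and 3732) became 405 and 841 with DESeq2, 1393 and 2052 with thinned nuclei, 874 and 1009 with start-site peaks only, and 421 to 513 and 769 to 929 with 1 P0 sample left out.

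Both clusters of a sample came from the same library, so the pairing by sample is given by the design. Without the replicate block 21502 and 23320 peaks and 2338 and 3141 genes were called, and 7 of the 94 named gene calls were lost.

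In the adults the unfiltered test called 477 and 8564 peaks. Leaving out 1 adult sample gave 615 to 1486 and 1968 to 4019 peaks and 494 to 889 and 858 to 1356 genes. The stage difference called 622 to 1007 genes larger at P0 and 369 to 766 larger in the adults with 1 sample left out. With promoters of 2 kb their share was 2.06% and 1.77% in place of 4.57% and 4.46%.

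At start-site peaks the sign turned for Crabp1 (-0.72), Nr2f1 (-0.041), Rarb (0.32), Fgfr4 (0.10), Cubn (0.80) and Cdh5 (1.07), and 29 of the 80 named calls tested there were lost with the sign kept. Of the 94 named gene calls 51 held with DESeq2, each P0 sample left out, thinned nuclei and no block; DESeq2 lost 38. The causes were not tested. In simulated data the peak test found 37 of 100 peaks changed 2-fold. Few of the 115766 peaks were changed there, 132 were called, and the spread was that of the fit. With so few calls the adjusted threshold was stricter than in the data. How many differences the test missed in the data is therefore not known.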
